A study of Mus musculus with 27 samples.

Results

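Erythroid cells were taken from droplet single-cell libraries of E11.5 mouse hearts (E gives the embryonic day) as the barcodes in which 20% or more of the UMIs (unique molecular identifiers, each marking a captured mRNA molecule) lay in genes whose symbols start Hba- or Hbb-, the alpha- and beta-type globin genes. The rule selected 2265 of 6032 barcodes, 985 of 2563 in the library labelled +/+ and 1280 of 3469 in the library labelled F/F. The study deleted Hand2os1, a long non-coding RNA gene beside the heart transcription factor gene Hand2, also called Hand2as or Uph, in C57BL/6 mice. Allele F removes the full length of the gene. For each single-cell genotype (Hand2as+/+ and Hand2asF/F, embryos from crosses of heterozygotes), cells of 6 hearts were dissociated with trypsin, sorted as living by exclusion of a dye and pooled in 1 library of 3′ ends. Bulk poly(A) RNA of E11.5 hearts gave 3 F/+ and 3 F/F libraries, so the bulk control carries 1 deleted allele while the single-cell control carries none.

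Blood cells reach the embryonic heart through its lumen. The first red cells of the mouse, called primitive, arise in the yolk sac, enter the circulation while still nucleated and dividing, and mature there together. They make embryonic globins (Hba-x, also called zeta, and the beta-type Hbb-y and Hbb-bh1, also called epsilon-y and beta-h1) beside the adult-type alpha globins, whereas the red cells made later in the foetal liver use Hba-a1, Hba-a2, Hbb-bs and Hbb-bt. As primitive cells mature, their beta-type globin is known to shift from Hbb-bh1 to Hbb-y, and their alpha-type globin from Hba-x to the adult-type genes.

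The windows of 120 bases just upstream of the start of an embryonic and an adult-type gene of each cluster are shown here because these are the genes whose balance is described below. RefSeq (build GRCm38.p6) held starts for Hba-x, Hba-a1, Hba-a2, Hbb-y, Hbb-bt and Hbb-bs. Capitals mark CACCC, the core of the element bound by Krüppel-like factors such as Klf1. They also mark CCAAT, known as a box of many promoters. The motif of the factors related to Gata1, GATAA, was marked as well. The motifs of the TATA-box type were ATAAA on the one hand and the longer form, which is written ATATAA, on the other. All were searched on both strands, and each sequence is read along the gene's own strand.
Hba-x, chr11:32276480-32276599, plus strand: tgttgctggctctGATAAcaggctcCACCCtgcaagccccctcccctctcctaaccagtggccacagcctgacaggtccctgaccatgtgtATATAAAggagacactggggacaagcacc
Hba-a1, chr11:32283552-32283671, plus strand: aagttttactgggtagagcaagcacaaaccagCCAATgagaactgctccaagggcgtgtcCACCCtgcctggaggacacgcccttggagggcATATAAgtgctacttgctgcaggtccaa
Hbb-y, chr7:103853208-103853327, minus strand: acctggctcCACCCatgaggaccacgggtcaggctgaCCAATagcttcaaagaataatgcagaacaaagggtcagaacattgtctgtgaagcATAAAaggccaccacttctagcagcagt
Hbb-bt, chr7:103813924-103814043, minus strand: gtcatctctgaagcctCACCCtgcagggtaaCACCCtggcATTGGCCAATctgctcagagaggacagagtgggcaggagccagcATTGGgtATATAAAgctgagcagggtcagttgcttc
Hbb-bs, chr7:103827929-103828048, minus strand: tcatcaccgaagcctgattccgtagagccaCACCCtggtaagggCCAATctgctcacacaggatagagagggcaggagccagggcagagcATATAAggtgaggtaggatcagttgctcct
The window of Hba-a2 held the same bases as that of Hba-a1 shifted by 3 (117 of 120 bases), so it is not printed. All of these windows held CACCC: it ended 91 bases before the start in Hba-x, 56 in Hba-a1, 107 in Hbb-y, 86 in Hbb-bs, and 100 and 85 in Hbb-bt. CCAAT was found in Hba-a1, Hbb-y, Hbb-bt and Hbb-bs, and in Hbb-bt also on the reverse strand (ATTGG) in 2 places, while no CCAAT lay in the Hba-x window. GATAA was found in Hba-x alone. An A/T-rich motif lay between 31 and 23 bases before the start in every window, and ATAAA and ATATAA overlapped in Hba-x and Hbb-bt. Of 32851 RefSeq promoter windows of this length, 31.7% held CACCC, 21.3% CCAAT, 10.5% GATAA, 20.2% ATAAA, 4.47% ATATAA and 6.23% both CACCC and CCAAT, and a match is a description of letters rather than of a bound site.

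The single-cell libraries held 38302758 UMIs (labelled +/+) and 51432290 UMIs (labelled F/F), and their shallowest erythroid cells held 3790 and 4009 UMIs. The deleted gene itself, under the symbol Gm28063, gave 1 UMI over all barcodes labelled +/+ and 9 over those labelled F/F, against the order its deletion would give. In erythroid cells it gave 0 and 2. Every direction between the 2 libraries given here therefore rests on labels that this gene does not bear out. The neighbouring Hand2 stood at 79.99 and 123 CPM in the other barcodes and at 7.95 and 16.9 CPM in erythroid cells (UMIs per 1000000 UMIs outside globin genes). The libraries shared 18 barcode sequences, carried by 13 erythroid barcodes. Each genotype has 1 library, so genotypes were compared without a test, and intervals (95%) cover counting error only.

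Globin share separated the barcodes into groups with few in between. Erythroid cells made up 38.4% of barcodes in the library labelled +/+ (exact Clopper-Pearson interval 36.5 to 40.3%) and 36.9% (35.3 to 38.5%) in the library labelled F/F. Their median globin share was 61.8% and 59.7% of UMIs, against 1.35% and 1.48% in the other barcodes, and 33 and 32 barcodes lay between 5 and 40%. Erythroid cells held 96.2% and 95.7% of all globin UMIs of their library. Globin UMIs also occurred in the other barcodes, where they made up 1.47% and 1.58% of UMIs and no barcode lacked them.

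**Figure D1:**
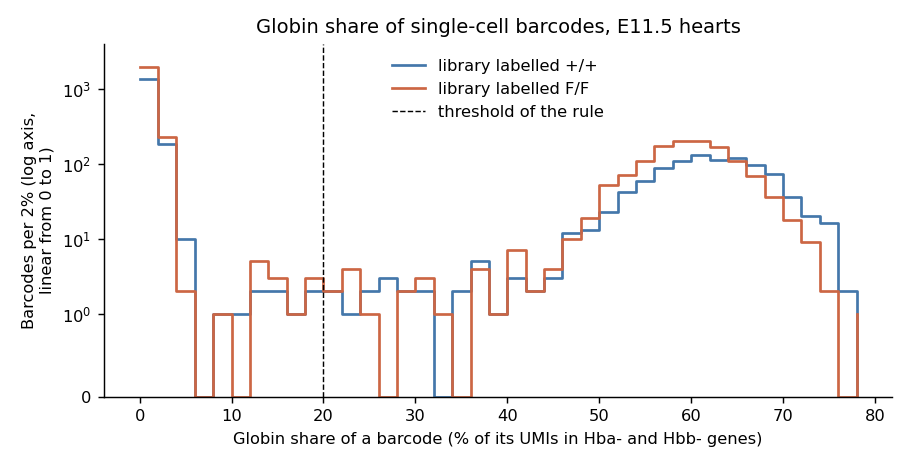
Number of barcodes (y, log axis, linear from 0 to 1) by the share of their UMIs in globin genes (x, percent) for the libraries labelled +/+ and F/F, with the 20% threshold as a dashed line. Most barcodes lie near medians of 1.35% and 1.48% or of 61.8% and 59.7%, and few lie near the threshold.

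Outside the globins, erythroid cells held fewer UMIs and fewer genes than the other barcodes. Their median depth was 11185 and 11764 UMIs, of which 4330 and 4721 lay outside globin genes, compared with 14014 and 14090 non-globin UMIs in the other barcodes. They showed a median of 1328 and 1448 genes, against 3518 and 3495. Mitochondrial genes took 3.11% and 3.35% of their non-globin UMIs and 4.58% and 4.36% of those of the other barcodes. Other genes are therefore given as CPM of non-globin UMIs, that is, UMIs per 1000000 UMIs outside Hba- and Hbb- genes. A 3′ library yields at most 1 UMI per captured molecule whatever its length, so levels of different genes were set side by side without a length correction.

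The barcodes nearest the threshold were mixed in content. Those just inside had globin shares of 20.1, 20.7, 21.4, 21.8 and 22.3%, and those just outside 19.7, 19.6, 18.6, 18.4 and 18.0%. Inside, 3 barcodes held 595, 638 and 467 UMIs of 11 heart muscle genes and the others 9 and 7, and outside, 2 held 697 and 707. Heart muscle UMIs and red cell genes such as Alas2 thus occurred together on both sides of the threshold. Over all erythroid cells, 2251 of 2265 held a UMI of Alas2, as did 25.7% and 27.7% of the other barcodes. At 1000 non-globin UMIs per cell the shares were 86.9% and 84.4% against 2.72% and 1.87%.

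Embryonic genes dominated the beta-type globins in every erythroid cell. Hbb-y alone took 27.6% of erythroid UMIs in the library labelled +/+ and 27.2% in that labelled F/F, and it was the most abundant beta-type globin in 2265 of 2265 cells. Hba-x followed with 10.5% and 9.90%, then Hbb-bh1 with 7.82% and 7.81%. Of the adult-type alpha genes, Hba-a1 was close to Hbb-bh1 in level, with 7.69% and 7.71%, and Hba-a2 was lower, with 4.04% and 3.86%. The adult-type beta genes were far lower: Hbb-bt took 1.82% (labelled +/+) and 1.65% (labelled F/F), and Hbb-bs 0.306% and 0.261%. The minor genes were near the bottom, with 547 and 760 UMIs of the theta globin Hbq1b, 20 and 39 of Hbq1a, and 5 and 7 of Hbb-bh2. Hba-a1 and Hba-a2 share much of their sequence, with 439 of 650 windows of 50 bases of the Hba-a1 transcript also found in Hba-a2. Hbb-bt and Hbb-bs share 381 of 654, so the split within either pair is uncertain. Hbb-y and Hbb-bh1 share none of 584 such windows.

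The alpha-type genes were close to evenly divided between embryonic and adult-type, while the beta-type genes were not. Hba-x made up 47.3% of alpha-type UMIs in erythroid cells of the library labelled +/+ and 46.1% in the library labelled F/F. Adult-type genes made up 5.68% and 5.19% of beta-type UMIs. They exceeded 50% in 0 of 2265 cells, which allows a share of up to 0.132% when 3 cells of the total are taken as the limit, and they exceeded 20% in 1 cell. Within the embryonic beta-type UMIs, Hbb-y made up 77.9% and 77.7%, the rest being Hbb-bh1. Alpha-type genes together made up 37.2% and 36.7% of globin UMIs. Globin UMIs found in the other barcodes had a similar make-up, with Hba-x at 49.0% and 48.6% of alpha-type, Hbb-y at 78.0% and 77.9% of embryonic beta-type, and adult-type genes at 5.28% and 4.82% of beta-type UMIs, but alpha-type genes took less of the globin there, 32.3% and 29.7%.

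Cells differed in these balances by more than counting would give. Hba-x ranged from 37.6 to 53.4% of alpha-type UMIs between the 5th and 95th percentiles of cells labelled +/+ and from 37.5 to 51.5% of those labelled F/F. The SD over cells was 4.99 and 4.64 points, where counting alone would give 1.08 and 1.07. For Hbb-y within embryonic beta-type UMIs, the SD was 3.90 and 3.52 points against 0.677 and 0.672 from counting. The adult-type beta share spanned 1.52 to 10.3% and 1.43 to 9.29% of cells' beta-type UMIs, with an SD of 2.79 and 2.46 points against 0.367 and 0.348. The spread of each balance was of similar size in both libraries, and the distributions overlapped.

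**Figure D2:**
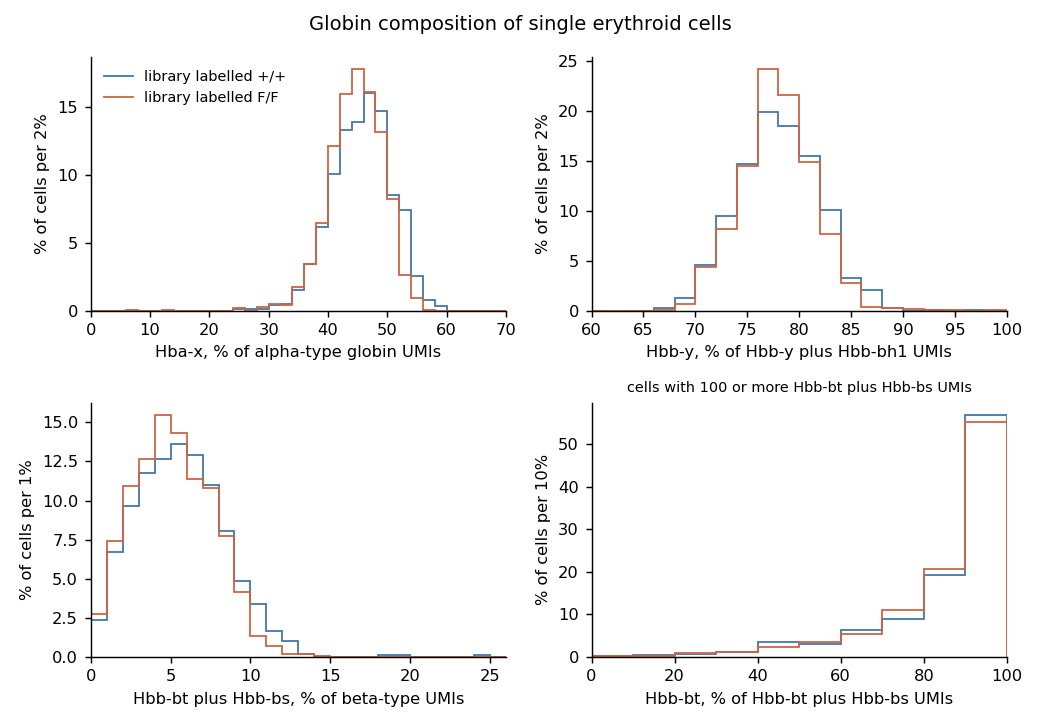
Percent of erythroid cells (y) by a cell's globin composition (x, percent) in the libraries labelled +/+ and F/F: Hba-x in alpha-type, Hbb-y in embryonic beta-type, adult-type in all beta-type, and Hbb-bt in adult-type beta UMIs. The first 3 are single-peaked around medians of 46.0 and 45.0%, 78.0 and 77.9%, and 5.46 and 5.06%, and the last rises towards 100% with a tail reaching 6.57%.

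The adult-type beta genes Hbb-bt and Hbb-bs did not keep a fixed ratio from cell to cell. In the sum over cells, Hbb-bt made up 85.6% and 86.4% of their UMIs, yet the SD over cells was 16.9 and 15.7 points against 2.91 and 2.96 from counting, far wider relative to counting error than for Hba-a1 within the adult-type alpha genes (2.78 and 2.83 points against 1.38 and 1.35). Among cells with 100 or more adult-type beta UMIs, 472 of 831 (labelled +/+) and 582 of 1055 (labelled F/F) had over 90% Hbb-bt. Hbb-bs exceeded Hbb-bt in 48 of 831 cells (5.78%, interval 4.29 to 7.59%) and in 48 of 1055 (4.55%, 3.37 to 5.99%). The most one-sided of these held 128 Hbb-bs and 9 Hbb-bt UMIs (labelled +/+) and 116 and 12 (labelled F/F), beside 4538 and 3872 UMIs of Hbb-y. Hbb-bs-rich cells had a median globin share of 63.8% and 61.6%, against 62.4% and 60.1% in the other cells of this depth, and 3 and 1 of them were among the highest doublet scores. The cells' Hbb-bs and Hbb-bt shares of beta-type UMIs were nearly unrelated in rank (Spearman's rho −0.08 over 831 cells and −0.10 over 1055 cells, which share libraries and a common denominator).

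A few cells stood apart. The cell with the most adult-type beta globin, labelled +/+, had 18594 UMIs and an adult-type share of 24.2%, made of 1076 Hbb-bt and 138 Hbb-bs UMIs beside 3518 of Hbb-y. Another, also labelled +/+, had 11478 UMIs but only 384 genes, with 75.5% globin, an Hbb-y share of 96.5% and no UMI of Alas2, Slc4a1 or the proliferation gene Mki67. The lowest Hba-x share, 7.12%, was in a cell labelled F/F with 8277 UMIs, 31.7% globin and an Hbb-y share of 98.4%. These cells are single barcodes and no group is drawn from them.

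Genes of red cell function were far higher in erythroid cells than in the other barcodes. Because the cells were chosen by their globins, this contrast is a description. Across 10454 genes, 5.84% were at least 2-fold higher and 43.8% at least 2-fold lower in erythroid cells in both libraries, and the median gene stood at −0.94 and −0.84 on the log2 scale. Ratios of non-globin CPM were ranked among the 1537 genes outside Hba- and Hbb- genes with 1000 or more erythroid UMIs. The largest included those of Rhd, a Rh blood group protein (109-fold), Gm42749 (100.4-fold), the theta globin Hbq1b (99.3-fold), Cfap57 (93.0-fold) and Alas2 (88.3-fold). Trim10, a ubiquitin ligase of red cells, Hemgn, a nuclear protein of blood precursors, and the water and glycerol channel Aqp3 followed at 87.3-, 85.9- and 84.4-fold. Hsd3b6, Pdzk1ip1, Acp5, Gm16867, Icam4 and 1300017J02Rik were also among the highest 15, which went down to 68.1-fold.

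All 12 haem synthesis genes were at least 2-fold higher, with a list total of 9760.5 CPM (labelled +/+) and 9527 CPM (labelled F/F), 13.4 and 13.8 times that of the other barcodes. Alas2, the erythroid enzyme of the first step of the pathway, stood at 2113 and 1922 CPM. Fech, which inserts the iron, stood at 677 and 648 CPM. The mitochondrial porphyrin carrier Tmem14c stood at 1797 and 1925 CPM. The smallest ratios of the list were those of the mitochondrial carrier Slc25a39, 2.67- and 2.38-fold.

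Iron genes were led by storage. Fth1, the ferritin heavy chain, took 18048 and 17349.8 CPM (14.1- and 12.98-fold over other barcodes) and Ftl1, the light chain, 11167 and 11415 CPM (3.36- and 3.10-fold). Slc25a37, the mitochondrial iron importer, stood at 1056 and 1003 CPM (38.0- and 33.5-fold). Tfrc, the transferrin receptor, was much lower, at 134 and 129 CPM (4.11- and 4.48-fold). Of 14 iron genes, 9 were at least 2-fold higher, and 3, the haem oxygenase Hmox1 and the iron regulatory proteins Aco1 and Ireb2, at least 2-fold lower.

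Of 20 red cell membrane genes with enough UMIs, 16 were at least 2-fold higher and 1, the water channel Aqp1 with 10 and 12 UMIs, lower. Slc4a1, the anion exchanger band 3, stood at 719 and 663 CPM, 49.1- and 34.6-fold over other barcodes. Sptb, a spectrin chain of the membrane skeleton, was at 141 and 117 CPM, and Epb42, which ties band 3 to the skeleton, was 56.0- and 56.5-fold higher. In the cytosol list, 9 of 12 genes were at least 2-fold higher and 1, the glycolytic Aldoa, lower. The carbonic anhydrase Car2 stood at 4517 and 4354 CPM, whereas Car1 had 0 and 1 UMI, and the peroxidase Prdx2 stood at 6366 and 6349 CPM.

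**Figure D3:**
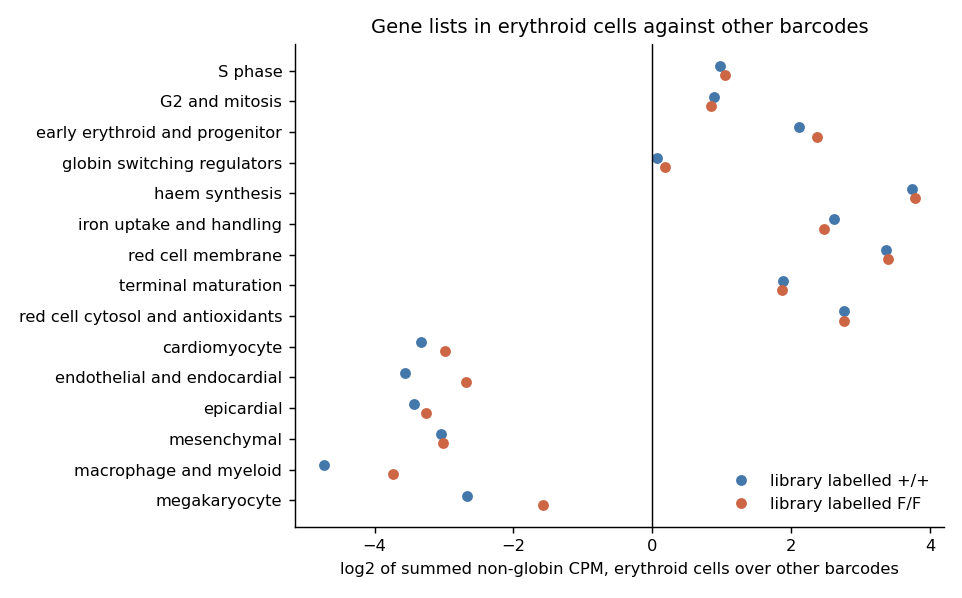
Log2 ratio of summed non-globin CPM in erythroid cells over other barcodes (x) for each gene list (y), 1 point per library. Haem synthesis and red cell membrane lists lie highest among the lists outside the globins, and the lists of heart muscle, lining, epicardial, mesenchymal, macrophage and platelet lineage genes lie below 0.

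Erythroid transcription factors were present, and the progenitor genes Kit, Gata2, Myb and Cd34 were nearly absent. Of 16 genes in the early erythroid and progenitor list with enough UMIs, 10 were at least 2-fold higher and 3 lower. Klf1, the factor that binds CACCC elements of erythroid promoters, stood at 491 and 490.4 CPM (25.8- and 39.5-fold over other barcodes). Gata1, the master regulator of the lineage, stood at 129 and 138 CPM, its partner Tal1 at 159 and 151 CPM, and the erythropoietin receptor gene Epor at 198 and 202 CPM. The stem and progenitor genes Kit (2 and 2 UMIs), Gata2 (5 and 8), Myb (1 and 3) and Cd34 (21 and 43) were close to zero over all erythroid cells. Myc, of the same list, had 267 and 371 UMIs and stood 2.59- and 3.35-fold over other barcodes. A UMI of Kit was found in 0.203% and 0.156% of erythroid cells and in 4.63% and 2.92% of the other barcodes, unthinned, at the median depths given above. At 1000 non-globin UMIs per cell, Kit was found in 0.203% and 0% of erythroid cells and in 0.634% and 0.183% of the other barcodes. The intervals of these thinned shares overlapped in both libraries. After each cell was thinned to 1000 non-globin UMIs, Klf1 was found in 41.4% and 39.6% of erythroid cells (82.8% and 87.2% unthinned) and in 1.65% and 1.42% of the other barcodes.

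Among genes known to act on the choice of globin, few were higher than in the other barcodes. Only Klf1 and Zbtb7a, a repressor of embryonic and foetal globin, were at least 2-fold higher than in other barcodes, and 7 of 10 were at least 2-fold lower, where 43.8% of all genes were. Zbtb7a stood at 66.3 and 63.4 CPM. Bcl11a, a repressor of embryonic-type globins in later red cells, had 8 and 13 UMIs over all erythroid cells, its partner Sox6 16 and 13, and Lin28b 4 and 10.

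Late genes were unevenly present. Of 18 terminal maturation genes, 8 were at least 2-fold higher and none lower. They were led by Bpgm, which makes the 2,3-bisphosphoglycerate that tunes oxygen release (596 and 616 CPM), the ubiquitin-like conjugating enzyme gene Ube2l6 (548 and 546 CPM), and the survival kinase Pim1 (302 and 348 CPM). Plek2, of the actin skeleton, was 84.0- and 57.6-fold higher than in other barcodes and Trim10 95.3- and 82.1-fold. The autophagy genes Bnip3l and Map1lc3b differed less: Bnip3l, known for clearing mitochondria, was 1.53- and 1.45-fold higher, and Map1lc3b 1.68- and 1.59-fold. Ulk1, also an autophagy gene of the list, was lower, at 0.333 and 0.601 times the other barcodes (21 and 45 UMIs).

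At equal numbers of non-globin UMIs, cycling genes were more widely present in erythroid cells than in the other barcodes. At 1000 non-globin UMIs per cell, with no cell left out, 90.4% (88.3 to 92.1%) and 92.2% (90.6 to 93.6%) of erythroid cells had a UMI of the S phase list of 26 genes, against 63.0% and 65.9% of other barcodes. Unthinned, the shares were 98.9% and 99.5% against 98.6% and 98.4%. For the G2 and mitosis list, also 26 genes, they were 90.8% (88.8 to 92.5%) and 89.4% (87.6 to 91.0%) against 58.1% and 61.5% in thinned cells, and unthinned 98.7% and 99.5% against 94.6% and 96.2%. Mki67, present in dividing cells, was found in 29.7% and 29.0% of thinned erythroid cells and in 5.26% and 4.93% of thinned other barcodes (69.2% and 72.5% against 37.4% and 39.97% unthinned). Counting cells with 3 or more thinned UMIs of a list, 14.1% and 13.5% of erythroid cells were under 3 in both lists, against 56.3% and 56.3% of other barcodes. S phase alone reached 3 in 25.5% and 25.9% of erythroid cells, G2 and mitosis alone in 29.9% and 27.7%, and both in 30.5% and 33.0%. Across erythroid cells the levels of the lists ran against each other (rho −0.35 over 985 cells and −0.36 over 1280, both scaled to the same non-globin UMIs).

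In summed levels per non-globin UMIs, S phase genes stood at 3054 and 3110.1 CPM in erythroid cells, 1.97 and 2.06 times the other barcodes. Of 26 genes, 10 were at least 2-fold higher and 1 lower. This scale leaves out globins, which took 59.8% and 58.4% of erythroid UMIs and 1.47% and 1.58% of those of other barcodes. Levels of the cycling lists over all UMIs were not compared between these kinds of barcode. Fen1, which trims replication intermediates, was 4.16- and 4.20-fold higher, and Tyms, the thymidylate synthase, stood at 367 and 368 CPM. G2 and mitosis genes stood at 4177 and 4047 CPM, 1.86 and 1.79 times, and 8 of 26 were at least 2-fold higher. Mki67 stood at 331 and 325 CPM, 5.47- and 5.46-fold over other barcodes, whereas Ube2c, of the mitotic ubiquitin machinery, was 1.46- and 1.29-fold higher. The difference was thus uneven over genes of the same phase.

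To describe how erythroid cells varied among themselves, they were placed in 4 bins by the Hbb-y share of embryonic beta-type UMIs and, separately, by globin share. Globin share is the value that chose the cells, so the order by it is a description of the chosen cells. From the lowest to the highest bin of Hbb-y share, the adult-type beta share went from 3.84 to 7.62% (labelled +/+) and from 3.54 to 6.87% (labelled F/F), and Hba-x went from 49.1 to 45.3% and from 47.5 to 44.2% of alpha-type UMIs. From the lowest to the highest bin of globin share, the adult-type beta share went from 4.09 to 6.84% and from 4.35 to 6.22%, and Hba-x from 50.1 to 44.6% and from 48.3 to 42.5%. In both orders and both libraries, cells with more Hbb-y relative to Hbb-bh1 or with more globin held more adult-type and less embryonic alpha globin. As ranks over 985 and 1280 cells, globin share and Hba-x share had rho −0.44 and −0.39, and Hbb-y share and adult-type beta share 0.53 and 0.49, where both measures of a pair share the cell's globin UMIs. Depth moved along these orders as well: median non-globin UMIs went from 5112 to 3355 and from 5378 to 4024 from the lowest to the highest bin of Hbb-y share, and from 6276.5 to 3121 and from 5936 to 3346 from the lowest to the highest bin of globin share. In bins by non-globin UMIs, an order chosen after the data were seen, Hba-x went from 42.2 to 49.7% and from 41.6 to 48.3%, and 1.74% of the 2649 genes measured along these orders were at least 1.5-fold higher and 2.23% at least 1.5-fold lower in the highest bin. The part of depth in the other orders was not tested.

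**Figure D4:**
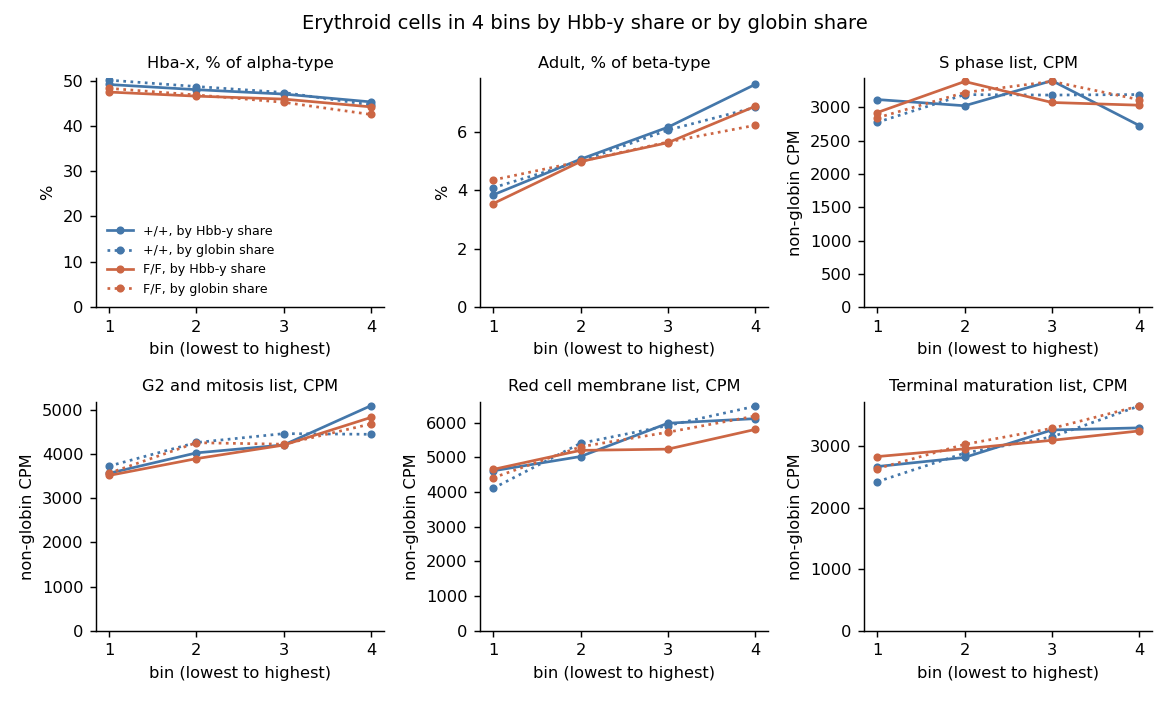
Globin shares (percent) and summed gene list levels (non-globin CPM) of erythroid cells in 4 bins (x, lowest to highest) by Hbb-y share (solid lines) or by globin share (dotted lines), for the libraries labelled +/+ and F/F. Adult-type beta share is higher and Hba-x share lower in the highest than in the lowest bin in both orders and both libraries, and G2 and mitosis genes are higher in the highest bin.

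Few single genes followed the Hbb-y share. Of 2649 genes that reached 200 UMIs in the erythroid cells of each library, 2.34% were at least 1.5-fold higher and 1.25% at least 1.5-fold lower in the highest than in the lowest bin in both libraries. The largest decreases were in Rpf2 (79.9 to 32.2 CPM labelled +/+, 67.4 to 32.1 labelled F/F), Wdr12, Nolc1, Mrap, Hsph1, Mrpl19, Rrs1 and Gnl3. Of these, Rpf2, Wdr12, Nolc1, Rrs1 and Gnl3 are nucleolar and act in ribosome production. Hsph1 was less than 1.5-fold lower in the library labelled F/F (38.7 to 28.0 CPM). Gnl3 went from 157 to 91.8 CPM and from 164 to 74.6 CPM. The largest increases were in Marcks, Cdkn2d, Hapln1, Pus10, Gm867, Apoe, Meg3 and Ypel5, of which Marcks, Hapln1, Apoe and Meg3 were higher in the other barcodes (261, 271, 399 and 550.4 CPM labelled F/F) than in the lowest or highest bin of either library. Cdkn2d, an inhibitor of the cyclin-dependent kinases of G1, went from 74.5 to 179 CPM and from 60.5 to 172 CPM. The G2 and mitosis list went from 3567 to 5099 CPM and from 3517 to 4833 CPM, and 2 of its 22 genes were at least 1.5-fold higher, with a median log2 ratio of 0.44 against 0.01 over all genes. The S phase list did not share this course, with a median of −0.19 and levels of 3117 and 2726 CPM (labelled +/+) and 2922 and 3032 CPM (labelled F/F) in the lowest and highest bins. Markers of other cell types were higher in the highest bin too: the mesenchymal list went from 109 to 223 CPM and from 105 to 202 CPM, and the heart muscle list from 1153 to 2557 CPM and from 2774 to 3062 CPM, with a median of 0.61 over 9 genes. Their part in the increases along this order was not tested.

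By globin share, 2.87% of the 2649 genes were at least 1.5-fold higher and 6.00% at least 1.5-fold lower in the highest bin in both libraries. Pus10 (23.3 to 62.0 CPM labelled +/+, 20.6 to 60.3 labelled F/F), Cdkn2d (70.03 to 181, 69.05 to 169.5), Rec114, Lockd, Cdkn2c, Hist1h1c, Gm867 and Ypel3 were the largest increases, so inhibitors of G1 kinases (Cdkn2c and Cdkn2d) stood among them. The terminal maturation list went from 2423 to 3655 CPM and from 2636 to 3654 CPM, with 3 of 12 genes at least 1.5-fold higher, and the membrane list from 4111 to 6477 CPM and from 4412 to 6194 CPM, with 2 of 19. The largest decreases were in Meg3, Tagln, Ankrd1, Sparc, Id2, Cnn2, Vim and Serpinh1, genes of muscle and connective tissue cells rather than of red cells. The heart muscle list went from 4049 to 1165 CPM and from 3979 to 2725 CPM. The lowest bins held 15 of 23 and 19 of 33 of the erythroid cells with the highest doublet scores. The part of these cells in these decreases, and in the rises of the maturation and membrane lists, was not tested. Without those cells, all 8 were still at least 1.5-fold lower in the highest bin in the library labelled +/+. In the library labelled F/F, Ankrd1 (log2 −1.77), Id2 (−0.85) and Tagln (−0.59) were, and Cnn2 (−0.56), Sparc (−0.44), Serpinh1 (−0.39), Vim (−0.37) and Meg3 (−0.08) were not.

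Between the libraries, erythroid cells differed little, in red cell genes as in genes at large. Of 4128 genes that reached 100 UMIs in both, 0.412% were at least 1.5-fold higher and 1.11% at least 1.5-fold lower in the library labelled F/F, and the median gene stood at 0.03 (log2, labelled F/F over labelled +/+). The list ratios were 0.03 for S phase (interval 0.00 to 0.05) and 0.02 for terminal maturation (−0.01 to 0.05). They were −0.05 for G2 and mitosis (−0.07 to −0.02), −0.03 for haem synthesis (−0.05 to −0.02), −0.05 for the membrane list (−0.07 to −0.03) and −0.03 for the early erythroid list (−0.07 to 0.01), and these 4 turned to 0.00, 0.01, 0.00 and 0.02 when scaled to all UMIs, globins included. Among the genes of the red cell, cycling and maturation lists, 2 were at least 1.5-fold lower and none was higher. They were the haem synthesis list's Slc25a39 (1 of 12 genes tested) and the S phase list's cyclin Ccne2 (1 of 26), both at −0.77. In the other barcodes these stood at −0.60 and −0.71. Alas2 stood at −0.14.

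The genes that differed most between the libraries in erythroid cells were not red cell genes, and the lowest were as low in the other barcodes. Snhg9, a non-coding host gene of small nucleolar RNAs, stood at 608 CPM in erythroid cells labelled +/+ and 134 CPM in those labelled F/F (log2 −2.18), and at −2.25 in the other barcodes. Gm29666 (−1.74), Nmt1 (−1.57), Rrm2b (−1.52), Ikzf5 (−1.48), Naa15 (−1.33), Amd1 (−1.25) and Ddx21 (−1.16) followed, with −2.18, −1.45, −1.70, −1.44, −1.36, −1.35 and −1.10 in the other barcodes. Each was thus lower in both kinds of barcode of the library labelled F/F. The highest ratios in erythroid cells were those of Pf4, a platelet chemokine (26.9 and 62.0 CPM, log2 1.21), Gm26917 (1.04), the muscle-type Cox6a2 (0.99), Tnnc1 (0.96), Tnni3 (0.92), Ckb (0.91), Myl3 (0.82) and Myh7 (0.76), mostly genes of heart muscle.

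Markers of other cell types were mostly low in erythroid cells and mostly higher in those labelled F/F. All 11 heart muscle genes were at least 2-fold lower than in the other barcodes, at 2004 and 2869 CPM against 20134 and 22719 CPM in sum, and the ratio of labelled F/F to labelled +/+ was 0.52 (log2) in erythroid cells and 0.17 in the other barcodes. The platelet lineage list stood at 68.5 and 124 CPM (log2 0.85), the lining cell list at 26.7 and 44.9 CPM (0.75), and the macrophage list at 7.95 and 17.6 CPM (1.15), with Ptprc, Csf1r and Mrc1 at 0 in the library labelled +/+. Mesenchymal genes went the other way, at 158 and 133 CPM. Epicardial genes stood at 34.5 and 45.4 CPM. A UMI of Tnnt2, the cardiac troponin T gene, was found in 9.14% and 15.9% of thinned erythroid cells (31.6% and 57.7% unthinned). The platelet lineage list stood at 434 and 367 CPM in the other barcodes, and 6 of its 8 tested genes were at least 2-fold lower in erythroid cells. Yet Pf4 was found in 3.55% and 6.48% of thinned erythroid cells, against 2.03% and 3.65% of thinned other barcodes. The part of these other-cell transcripts in the differences between the libraries was not tested. Without the barcodes of the highest doublet scores, a comparison added after the data were seen, the log2 ratios were 0.55 for heart muscle, 0.81 for the platelet lineage, 0.79 for lining cells and 1.25 for macrophages.

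Bulk E11.5 hearts, which played no part in choosing the cells, showed red cell transcripts at levels that varied more among replicates than between genotypes. Globin genes took 20.1, 10.4 and 29.7% of the FPKM (values divided by transcript length and library size) of F/+ replicates 1, 2 and 3 and 17.03, 10.7 and 20.1% of F/F replicates 1, 2 and 3. The means were 20.1 ± 9.68% and 15.96 ± 4.79% (SD, n = 3 each), the groups overlapped, and the difference of −4.09 points had a two-sided exact permutation p of 0.7, where 0.1 is the smallest this design allows. Without F/+ replicate 3 the difference was 0.74 points, and on log2 of the summed globin FPKM of all libraries it was 0.0434. Its direction thus rested on that library and on the measure. In bulk RNA, fewer red cells and less RNA per red cell cannot be told apart. The labels call these libraries replicates without naming separate animals, so p-values measure the spread between these samples.

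Each erythroid marker followed the same course over the libraries. Hba-x stood at 36381, 20257 and 53191 FPKM in F/+ and at 35299, 27889 and 45978 FPKM in F/F (log2 fold change 0.07, SE 0.34, limma adjusted p = 0.999 over 11491 genes). Hbb-y stood at 34747, 16316 and 70869.7 FPKM in F/+ and at 33155, 22549 and 51457 FPKM in F/F (−0.02, SE 0.48, limma adjusted p = 0.999). The groups overlapped for both, and F/+ replicate 2 was lowest and F/+ replicate 3 highest. Hbb-bh1 stood at 4913, 1975 and 10630.5 FPKM in F/+ and at 5325, 4681 and 7021 FPKM in F/F (0.25, SE 0.48, limma adjusted p = 0.999). Alas2 stood at 149, 66.2 and 337 FPKM in F/+ and at 148, 95.4 and 226 FPKM in F/F, and Slc4a1 at 333, 147 and 691 FPKM and at 299, 232 and 477 FPKM. Of 61 list genes at least 2-fold higher in erythroid cells, outside the cycling lists, 45 were lowest in F/+ replicate 2, 49 highest in F/+ replicate 3, and 41 both, against 17, 13 and 4 of the 98 other list genes tested. Red cell genes thus varied together from library to library.

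**Figure D5:**
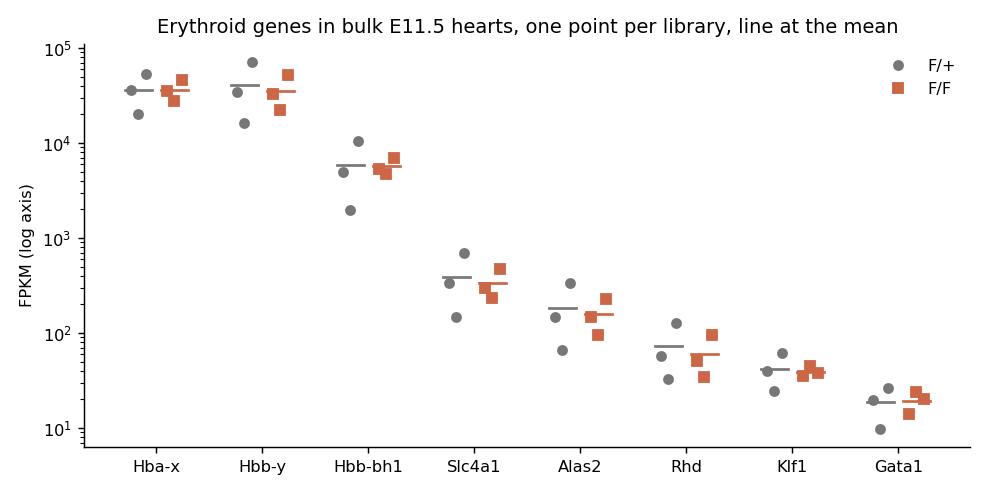
FPKM (y, log axis) of erythroid genes in bulk E11.5 hearts, 1 point per library for F/+ and F/F (3 each), with a line at the mean. The groups overlap for every gene drawn.

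Of the 11491 genes tested in bulk with limma, 1 was called (0.00870%), the microRNA host entry Mir6236, and 502 had an unadjusted p under 0.05. None of the 98 tested genes of the globin, early erythroid, haem, iron, membrane, cytosol and maturation lists was called, and the smallest adjusted p among them was 0.999 by limma. Their median log2 fold change was −0.02, against 0.02 over all genes tested. It ranged from −0.30 without F/+ replicate 2 to 0.24 without F/+ replicate 3, and was also above 0 without F/F replicate 1 (0.04) or F/F replicate 2 (0.05). It was −0.36 against −0.31 over all genes when the FPKM were rescaled to a common total outside globins. The adult-type alpha genes scattered widely between libraries, Hba-a1 at 10236, 431 and 355 FPKM in F/+ and at 1065, 5137 and 1371 FPKM in F/F, and were read as uncertain for the reason given above.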

How the data were processed

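The single-cell table was deposited by the authors as whole UMI counts of each gene in each barcode, and barcode endings name the library. The bulk table holds values deposited by the authors that were read as FPKM from the values alone, since no header names the unit; their depth is unknown. Per the submitters' processing notes, CASAVA, TopHat, TopHat2 2.0.11 and Cell Ranger were used, with builds mm9 and mm10; their roles are not given in the sources used here. RefSeq promoters came from GRCm38.p6.

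No barcode was removed. Genes outside globins were scaled to non-globin UMIs. Doublets were scored with scrublet (scanpy 1.11.5) and kept; its own threshold marked 9 and 3 barcodes, too few to be working, so an alternative removed the highest scores at 0.8% per 1000 barcodes (53 and 96). Shares have exact Clopper-Pearson intervals, and ratios exact ones conditional on the sum of both counts (scipy 1.17.1). The shallowest erythroid cell held 1172 non-globin UMIs, so thinning to 1000 left out no cell.

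In bulk, log2(FPKM + 1) of genes with a mean of 1 or more was fitted with limma 3.58.1 (trend) in R 4.3.3 at an adjusted p of 0.05; folds on this scale understate changes of low genes. Identical lines of 270 repeated symbols were merged, leaving 24026 genes. The fits were tested on simulated data.

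The cells and the 18 gene lists were chosen with earlier results of these data known. Named genes were the globins, list members, the 15 highest ratios over other barcodes (1000 or more UMIs), and the 8 highest and 8 lowest between libraries (100 or more UMIs in each) and along each order (200 or more in each). Some genes that this rule names are not reported here. Alternatives were other globin thresholds, doublet removal, scaling to all UMIs, other thinning, other pseudocounts and filters, rescaling, leaving out each library and a replicate block.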

Additional observations from a re-analysis of the deposited data

Results flagged for a closer look

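These items stood on opposite sides of 0 in erythroid cells and in the other barcodes when the library labelled F/F was set against the library labelled +/+; with 1 library per label, the differences were not tested. Pf4, the platelet chemokine, had a log2 ratio of 1.21 in erythroid cells and −0.33 in the other barcodes, and the platelet lineage list 0.85 and −0.24. Myh7, the beta myosin heavy chain of heart muscle, had 0.76 and −0.11. The lining cell list, of endothelial and endocardial genes, had 0.75 and −0.13. The embryonic globins, scaled to non-globin UMIs, had −0.0813 in erythroid cells and 0.13 in the other barcodes, and the iron list −0.0233 and 0.11.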

How the results depend on the processing

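With erythroid cells defined at 50% globin in place of 20%, they made up 36.4% (labelled +/+) and 35.2% (labelled F/F) of barcodes, Hba-x 47.2 and 46.0% of alpha-type, Hbb-y 78.0 and 77.8% of embryonic beta-type and adult-type genes 5.76 and 5.23% of beta-type UMIs, and the log2 ratios were −0.0169 for G2 and mitosis, −0.0665 for haem synthesis and −0.0743 for the membrane list. Cells with a G2 and mitosis UMI were 98.7 and 99.5% unthinned and 97.6 and 98.4% at 2000 UMIs, where more UMIs were counted and cells of fewer were left out. Without the highest doublet scores the G2 and mitosis ratio was −0.00576. Scaled to all UMIs, ratios were 0.0751 for S phase, 0.0181 for the early list, 0.0680 for terminal maturation, 0.00329 for G2 and mitosis, 0.0142 for haem synthesis and 0.00106 for the membrane list; the early list and the last 3 changed sign, as the share of globin, now in the denominator, was lower in the library labelled F/F. In bulk, limma called 4 genes after rescaling outside globins, 2 with the replicate block, and 1 to 2 when each library was left out (2 without F/+ replicate 3); the cause was not tested. Replicate numbers did not pair the libraries (same-number r −0.04, −0.02 and 0.08), and with the replicate block the globin share difference was −4.09 points (exact sign permutation p = 0.5). It ranged from −8.94 to 0.74 points when each library was left out, and on log2 of the summed FPKM it was 0.0434 (p = 1, exact permutation). Of the values recomputed, 61 stayed within their error or call, 22 moved (the early list in sign too) and 5 turned in direction; terminal maturation, at 0.02, also went to −0.00267 at 50% globin, within its error. Depth limits genes of few UMIs in erythroid cells, such as Kit and Myb.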
